A study of Mus musculus with 12 samples.

Results

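The keratins described here are 8 genes chosen by name: Krt7, Krt8, Krt18 and Krt19, which mark luminal or simple epithelium, and Krt5, Krt14, Krt16 and Krt17, which mark basal or stressed stratified epithelium. They are 8 of the 24454 genes in a table of RNA levels from 3 mesenchymal mouse breast cancer cell lines, and 7 of the 8, all but Krt5, passed the filter on low values and were tested. The lines PyMT-1099 LT and Py2T LT derive from mouse mammary tumours driven by polyoma middle T antigen (MMTV-PyMT), and the line MT∆Ecad from a tumour model driven by Neu (MMTV-Neu). In these mice the MMTV promoter drives the oncogene mainly in mammary epithelium, and the name MT∆Ecad refers to a loss of E-cadherin. All cells grew in DMEM with fetal bovine serum and received Dharmacon siRNAs, either one that targets Nrf2 (siNrf2) or a non-targeting control (siCtl), and were kept for 48 hours. Each of the 6 combinations of line and siRNA had 2 libraries, replicates 1 and 2, described as biological duplicates, and each comparison of siNrf2 with siCtl asks what loss of Nrf2 changes in that line.

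Keratins are the intermediate filament proteins of epithelial cells. A filament needs type I and type II chains in equal amounts, and each epithelium has its preferred partners: Krt8 (type II) with Krt18 (type I) in simple and luminal epithelium, joined there by Krt7 (type II) and Krt19 (type I), and Krt5 (type II) with Krt14 (type I) in basal cells, including the myoepithelium of the mammary gland. Krt16 and Krt17 are type I chains that keratinocytes raise after wounding or stress. Epithelial cells that become mesenchymal typically lower their keratins and build filaments of vimentin, and Nrf2 is a transcription factor best known for turning on genes of the antioxidant defence.

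The genes lie in the mouse keratin clusters. On GRCm38.p6, the assembly of the RefSeq tables used for positions, Krt7 (Entrez 110310) is at chr15:101412403-101427806, Krt5 (110308) at chr15:101707069-101712905, Krt8 (16691) at chr15:101996711-102004342 and Krt18 (16668) at chr15:102028216-102032026, so the type I gene Krt18 is the neighbour of its partner Krt8 in the type II cluster. Krt19 (16669) is at chr11:100140810-100145926, Krt14 (16664) at chr11:100203162-100207510, Krt16 (16666) at chr11:100246091-100248902 and Krt17 (16667) at chr11:100256215-100261029. RefSeq promoter windows at the start of the annotated gene were found for Krt5, Krt7, Krt8 and Krt18. The 250 bases before the start of the luminal genes Krt7, Krt8 and Krt18, for which the table has a window at the gene's start, are shown with the E-box CAGGTG, which reads CACCTG on the opposite strand, in capitals, since repressors that drive epithelial cells towards a mesenchymal state, such as Zeb1 and Snai1, bind this motif.
Krt7, chr15:101412153-101412402, plus strand: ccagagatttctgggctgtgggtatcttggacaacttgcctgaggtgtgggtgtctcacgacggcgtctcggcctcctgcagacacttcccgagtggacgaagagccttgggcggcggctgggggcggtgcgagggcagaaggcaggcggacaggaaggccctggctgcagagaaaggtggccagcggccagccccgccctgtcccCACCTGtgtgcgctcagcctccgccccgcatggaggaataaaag
Krt8, chr15:102004343-102004592, minus strand: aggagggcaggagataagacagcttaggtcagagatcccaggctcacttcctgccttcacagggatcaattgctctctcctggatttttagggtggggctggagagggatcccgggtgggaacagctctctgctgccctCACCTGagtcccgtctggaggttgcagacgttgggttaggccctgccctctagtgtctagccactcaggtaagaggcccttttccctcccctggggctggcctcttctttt
Krt18, chr15:102027966-102028215, plus strand: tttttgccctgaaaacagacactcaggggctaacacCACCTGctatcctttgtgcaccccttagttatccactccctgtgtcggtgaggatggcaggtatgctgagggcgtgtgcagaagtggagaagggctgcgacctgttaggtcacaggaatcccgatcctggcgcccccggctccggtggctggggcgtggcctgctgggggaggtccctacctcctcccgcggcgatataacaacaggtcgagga

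The E-box began at base −44 from the start of Krt7, −111 of Krt8, −214 of Krt18 and −128 of Krt5, counted from the start site to the match on either strand. The motif was present in 20.2% of all 32851 RefSeq windows of 300 bases, 250 before and 50 from the start. The core of the antioxidant response element, TGACNNNGC on either strand, to which Nrf2 binds, was in 12.4% of those windows. Among the 4 keratin windows at a gene's start it was found in that of Krt5, at base 35 after the start. Krt14 also had 1 window, with a start site 1480 bases inside the annotated gene, and it held neither motif.

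A sequence comparison bears on how far reads can be assigned to Krt14 and Krt16. Among all stretches of 81 nt, the read length, in the GENCODE M21 transcripts of Krt14, 5.19% also occurred in Krt16. Of the Krt16 stretches 27.8% occurred in another gene: 22.2% in the pseudogene Gm11597 and 5.66% in Krt14. The stretches common to Krt14 and Krt16 make up a run of 110 nt at coding bases 171 to 280 of both genes, and a run of 134 nt at coding bases 306 to 439 of Krt14 and 282 to 415 of Krt16. They are shown because a read that falls wholly within them fits both genes.
Krt14 and Krt16, first run: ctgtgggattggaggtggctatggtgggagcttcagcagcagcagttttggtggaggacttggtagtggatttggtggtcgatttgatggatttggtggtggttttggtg
Krt14 and Krt16, second run: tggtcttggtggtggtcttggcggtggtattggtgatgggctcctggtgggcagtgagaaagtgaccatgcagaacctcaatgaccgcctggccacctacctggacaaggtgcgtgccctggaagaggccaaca

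Of the Krt8 stretches 21.9% were shared, mostly with the processed pseudogene Krt8-ps (20.8%), and of the Krt5 stretches 6.85%. Those of Krt7, Krt18, Krt19 and Krt17 had no match in another gene. The counter and its rule for reads that fit several genes are not given in the sources used here.

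The libraries held 27088970 to 37070635 reads each, and levels are given in CPM, the reads of a gene per 1000000 reads of the library. Nfe2l2, the gene of Nrf2, kept 25.2% of its siCtl level in MT∆Ecad, where PyMT-1099 LT kept 26.1% and Py2T LT 26.8%. The label mesenchymal was checked against markers. The summed level of 8 mesenchymal markers was 10420 to 19830 CPM per library, against 53.8 to 90.1 CPM for 8 epithelial markers in PyMT-1099 LT and Py2T LT and 2.46 to 2.95 CPM in MT∆Ecad. Among the epithelial markers Epcam, Ovol2 and Cldn7 were at 0 reads in PyMT-1099 LT, and Esrp1 and Ovol2 were at 0 reads in MT∆Ecad. Py2T LT differed: 0 of the 8 epithelial markers were at 0 reads there. In that line 6 of the 8 reached a CPM of 1 in both libraries of siCtl and of siNrf2, against 2 in PyMT-1099 LT and 1 in MT∆Ecad. Keratin RNA was nevertheless abundant, and the 8 members together held 2354 to 5520 CPM. In RNA of whole cultures, fewer cells that express a keratin cannot be told apart from less keratin RNA per cell.

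Krt18, the luminal type I keratin, was lowest in MT∆Ecad. In siCtl its 2 libraries had 2615 and 2218 CPM in PyMT-1099 LT, 1424 and 1198 CPM in Py2T LT, and 212 and 232 CPM in MT∆Ecad. The lines did not overlap, and the mean of MT∆Ecad was 10.9-fold lower than that of PyMT-1099 LT (log2 difference −3.43, SE 0.137, limma adjusted p 1.8e-08). Its partner Krt8 varied much less, with 1695 and 1487 CPM in PyMT-1099 LT, 1545 and 1297 CPM in Py2T LT, and 770.0 and 874 CPM in MT∆Ecad. The first 2 of these lines overlapped (log2 difference −0.17, 95% interval −0.54 to 0.21, limma adjusted p 0.42), and MT∆Ecad was 1.94-fold lower than PyMT-1099 LT (limma adjusted p 0.00081).

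Krt7 went the other way. This luminal type II keratin had 49.6 and 48.3 CPM in the siCtl libraries of PyMT-1099 LT, 348 and 283 CPM in Py2T LT, and 1227 and 1398 CPM in MT∆Ecad. The lines did not overlap, and the mean of MT∆Ecad was 26.8-fold that of PyMT-1099 LT and 4.16-fold that of Py2T LT (log2 differences 4.71 and 2.06, SE 0.139 each, limma adjusted p 2.0e-09 and 1.2e-06). The line with the lowest Krt18 thus had the highest Krt7.

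Krt19, the luminal type I keratin that lacks the usual tail, was a keratin of 1 line. Its siCtl libraries had 125 and 120 CPM in PyMT-1099 LT, 0 reads in both libraries of Py2T LT, and 2 and 3 reads in MT∆Ecad. With 0 reads taken to allow up to 3 reads per library, or 0.101 CPM, PyMT-1099 LT was at least 1186-fold higher than Py2T LT. The 4 siNrf2 libraries of the latter lines had the same pattern, 0 reads in Py2T LT and 4 and 2 reads in MT∆Ecad.

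Of the basal keratins, Krt14 had 14.4 and 13.1 CPM in the siCtl libraries of PyMT-1099 LT, 33.3 and 31.1 CPM in Py2T LT, and 142 and 123 CPM in MT∆Ecad. Its order of lines was that of Krt7, with MT∆Ecad 9.65-fold above PyMT-1099 LT (log2 difference 3.18, SE 0.119, limma adjusted p 1.1e-08) and 4.11-fold above Py2T LT. Krt5, the type II partner of Krt14 in basal cells, was near absent: 18 and 23 reads (0.646 and 0.657 CPM) in PyMT-1099 LT, 3 and 1 reads in Py2T LT, and 1 and 0 reads in MT∆Ecad. In RNA, the basal pair was therefore present as its type I member with little or no type II member in all 3 lines. The Krt5 reads of MT∆Ecad and Py2T LT were too few to rank these lines (limma adjusted p 0.28 without the filter).

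Krt16 peaked in Py2T LT, at 14.5 and 8.74 CPM, against 3.05 and 2.26 CPM in PyMT-1099 LT and 2.56 and 2.62 CPM in MT∆Ecad. The latter lines overlapped (log2 difference −0.02, 95% interval −0.60 to 0.57), and Py2T LT lay 4.38-fold above PyMT-1099 LT (log2 difference 1.76, SE 0.258, limma adjusted p 0.0003). Krt17 was low everywhere, with 2.51 and 1.54 CPM in PyMT-1099 LT, 0.945 and 0.566 CPM in Py2T LT, and 2 and 1 reads in MT∆Ecad. Between the siCtl groups, 6 of the 7 tested keratins differed in each of the 3 comparisons of lines, where the background over all tested genes was 55.6% for Py2T LT against PyMT-1099 LT, 57.6% for MT∆Ecad against PyMT-1099 LT and 54.4% for MT∆Ecad against Py2T LT. The members not called were Krt8, Krt16 and Krt19, in that order. The Krt17 call between Py2T LT and PyMT-1099 LT (log2 difference −0.78, limma adjusted p 0.0075) was lost without PyMT-1099 LT siCtl replicate 1 (0.064) or Py2T LT siCtl replicate 2 (0.058). That between MT∆Ecad and Py2T LT (−0.73, limma adjusted p 0.010) was lost without Py2T LT siCtl replicate 1 (0.080) or MT∆Ecad siCtl replicate 2 (0.052). Strain of origin, oncogene and E-cadherin cannot be told apart where MT∆Ecad is set against PyMT-1099 LT or Py2T LT. The latter lines share the oncogene. Each comparison sets 1 line against another, so other differences between the lines cannot be told apart either.

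**Figure D1:**
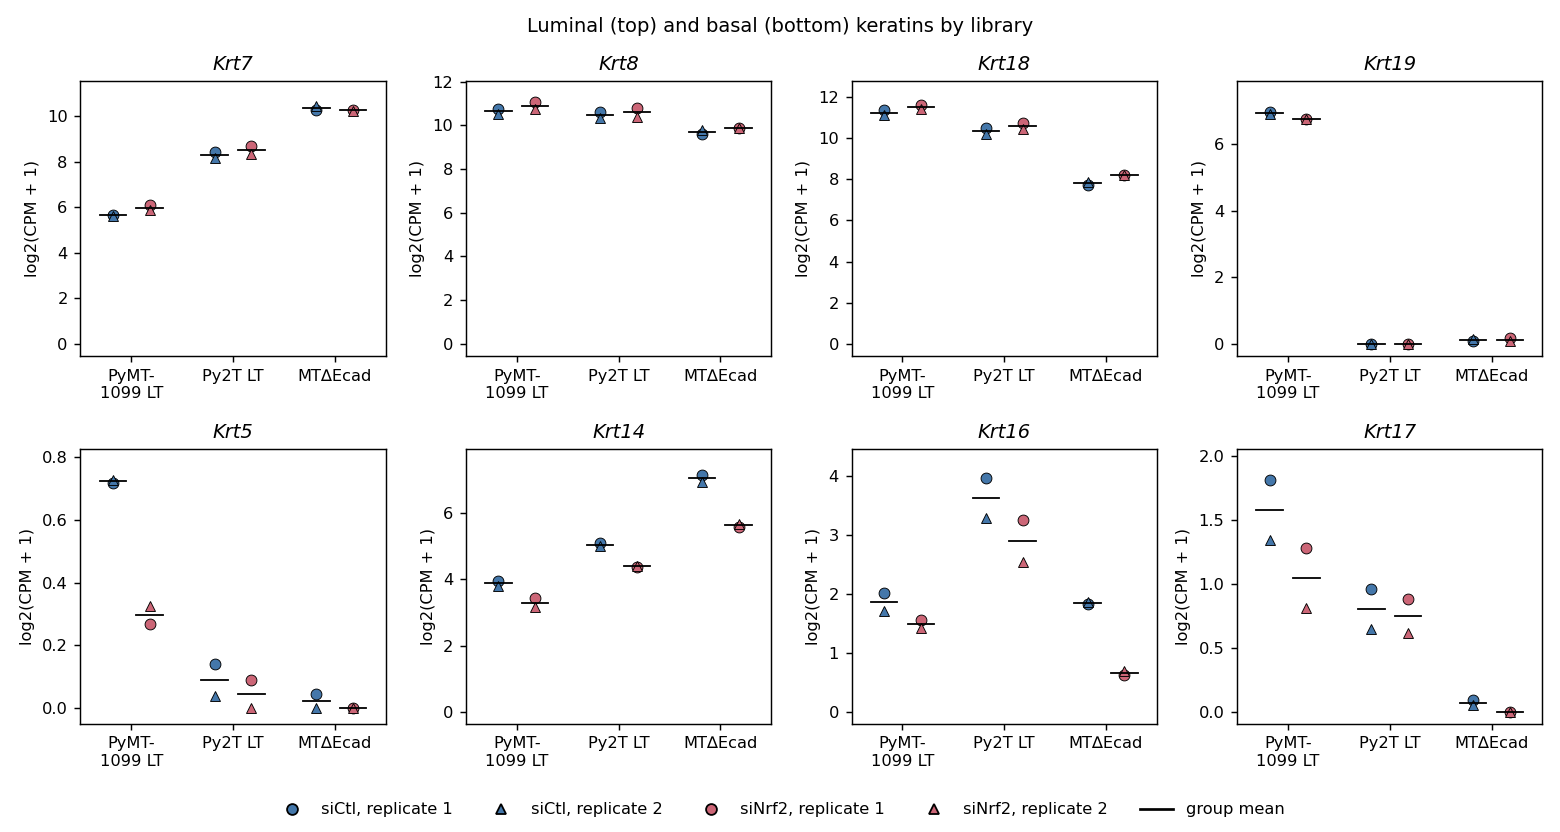
Levels of the 8 keratins as log2(CPM + 1) in the 12 libraries, luminal keratins in the upper row and basal keratins in the lower row, each panel with its own axis. Circles and triangles are replicates 1 and 2, colours the siRNA and bars the group mean of the log values. Krt7 and Krt14 climb from PyMT-1099 LT to MT∆Ecad, Krt18 descends, and the siNrf2 points of Krt14 and Krt16 lie below both siCtl points of their line in all 3 lines.

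Knockdown of Nrf2 lowered Krt14 and Krt16 on the average of the 3 lines and raised Krt18. By limma, 3 of the 7 tested keratins passed the test on the average, 1 higher and 2 lower, against a background of 12.3% of all tested genes (5.99% higher and 6.26% lower). The median log2 fold change of the 7 was −0.06, beside −0.01 over all tested genes. The paired, or blocked, fit, in which the replicate number within a line is a term because same-numbered libraries deviated together, called 6 of the 7, 3 higher (Krt7, Krt8 and Krt18) and 3 lower (Krt14, Krt16 and Krt17), against a background of 40.0%.

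Krt14 was the clearest of these changes. Between siCtl and siNrf2 it went from 14.4 and 13.1 CPM to 9.83 and 7.97 CPM in PyMT-1099 LT, from 33.3 and 31.1 CPM to 19.9 and 20.3 CPM in Py2T LT, and from 142 and 123 CPM to 47.4 and 50.1 CPM in MT∆Ecad. Every siNrf2 library was below both siCtl libraries of its line, as was the case in all 3 lines for 4.15% of the tested genes. MT∆Ecad kept 36.9% of the siCtl mean after siNrf2, Py2T LT 62.5% and PyMT-1099 LT 65.0%.

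The average log2 fold change of Krt14 was −0.88 (SE 0.069, limma adjusted p 0.00054). In MT∆Ecad it was −1.42 (SE 0.119, limma adjusted p 0.00037), and both calls remained in 12 of 12 fits that each left out 1 library. In PyMT-1099 LT the log2 fold change was −0.58 (95% interval −0.84 to −0.31) and did not pass without the block (limma adjusted p 0.098, and 0.015 with the block). In Py2T LT it was −0.65 (95% interval −0.92 to −0.38; limma adjusted p 0.14, and 0.027 with the block).

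Krt16 had the same direction in each line. It went from 3.05 and 2.26 CPM to 1.95 and 1.68 CPM in PyMT-1099 LT, from 14.5 and 8.74 CPM to 8.53 and 4.77 CPM in Py2T LT, and from 2.56 and 2.62 CPM to 0.536 and 0.610 CPM in MT∆Ecad. The siNrf2 libraries again lay below both siCtl libraries of each line, in Py2T LT by little, since siCtl replicate 2 had 8.74 and siNrf2 replicate 1 had 8.53 CPM. On the average its log2 fold change was −0.76 (SE 0.149, limma adjusted p 0.014), a call kept in each of the 12 fits that omitted a library.

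In MT∆Ecad the log2 fold change of Krt16 was −1.19 (SE 0.258, limma adjusted p 0.014), on 79 and 71 reads against 17 and 21. On the recovered reads edgeR gave −2.13 for the same change, since the pseudocount of 1 CPM shrinks changes at this level. The call was lost without any 1 of the 4 MT∆Ecad libraries, with limma adjusted p of 0.089 without siCtl replicate 1, 0.064 without siCtl replicate 2, 0.069 without siNrf2 replicate 1 and 0.087 without siNrf2 replicate 2. In PyMT-1099 LT and Py2T LT the log2 fold changes were −0.37 (limma adjusted p 0.75, and 0.039 with the block) and −0.73 (0.69, and 0.018 with the block).

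Since Krt14 and Krt16 share the 2 runs printed above, their reads were set side by side. In MT∆Ecad the reads given to Krt16 were 1.13% to 2.14% of those given to Krt14, below the 5.19% of Krt14 stretches that also fit Krt16: siCtl replicates 1 and 2 had 79 and 71 Krt16 reads where the shared runs alone would hold 227 and 172 Krt14 reads if coverage were even. In PyMT-1099 LT the ratio was 17.3% to 21.2% and in Py2T LT 23.5% to 43.6%. How much of the Krt16 value of MT∆Ecad came from shared reads was not tested.

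The other basal keratins were at low counts. Krt17 went from 70 and 54 to 42 and 27 reads in PyMT-1099 LT, which is 2.51 and 1.54 CPM to 1.43 and 0.758 CPM, and from 28 and 21 to 26 and 19 reads in Py2T LT. Its log2 fold change in PyMT-1099 LT was −0.53 (95% interval −0.97 to −0.09) and passed only with the block (limma adjusted p 0.38, and 0.010 with the block). On the average it was −0.22 (limma adjusted p 0.24, and 0.0050 with the block), while MT∆Ecad had 2 and 1 reads in siCtl and 0 in siNrf2.

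Krt5 was below the filter. In PyMT-1099 LT its reads went from 18 and 23 to 6 and 9, so that siNrf2 had 35.1% of the siCtl mean CPM. The groups did not overlap, and the share of all genes apart in this line is not given here. With every gene of at least 1 read in 2 libraries let in, its log2 fold change there was −0.43 (SE 0.044, limma adjusted p 0.0073), where 0.673% of 17098 genes were called. This SE is pooled over all 12 libraries, and those of the other lines were near 0, so it does not measure the spread within PyMT-1099 LT. In the 4 libraries of Py2T LT Krt5 had 0 to 3 reads and in those of MT∆Ecad 0 to 1, too few to show a change.

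Krt18 was the luminal keratin called on the average. Its siCtl and siNrf2 libraries had 2615 and 2218 against 3193 and 2740 CPM in PyMT-1099 LT, 1424 and 1198 against 1730 and 1403 CPM in Py2T LT, and 212 and 232 against 298 and 297 CPM in MT∆Ecad. The groups were apart in PyMT-1099 LT and MT∆Ecad and overlapped in Py2T LT, where the replicates with the same number moved in the same direction. The share of all tested genes that were apart in a single line is not given here. Relative to the siCtl mean, the siNrf2 mean of MT∆Ecad was 134%, that of PyMT-1099 LT 123% and that of Py2T LT 119.5%.

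The average log2 fold change of Krt18 was 0.32 (SE 0.079, limma adjusted p 0.031, and 0.0004 with the block). This call remained when 4 of the 12 libraries were omitted in turn, in the fits without PyMT-1099 LT siCtl replicate 1 or siNrf2 replicate 2 and those without Py2T LT siCtl replicate 1 or siNrf2 replicate 2. In the other 8 the log2 fold change was between 0.27 and 0.35, with limma adjusted p up to 0.098. In MT∆Ecad alone the log2 fold change was 0.42 (95% interval 0.11 to 0.73; limma adjusted p 0.066, and 0.00063 with the block).

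Krt8 and Krt7 did not pass without the block. Krt8 went from 770.0 and 874 to 947 and 937 CPM in MT∆Ecad, from 1695 and 1487 to 2140 and 1724 CPM in PyMT-1099 LT and from 1545 and 1297 to 1801 and 1327 CPM in Py2T LT, with an average log2 fold change of 0.20 (95% interval −0.01 to 0.41; limma adjusted p 0.20, and 0.0072 with the block). The siNrf2 libraries of Krt8 lay above both siCtl libraries in MT∆Ecad and PyMT-1099 LT and overlapped with them in Py2T LT. Again, the share of all tested genes apart in a single line is not given here. Krt7 went from 49.6 and 48.3 to 66.5 and 57.9 CPM in PyMT-1099 LT and from 348 and 283 to 415 and 325 CPM in Py2T LT, but from 1227 and 1398 to 1227 and 1215 CPM in MT∆Ecad, with an average of 0.15 (limma adjusted p 0.25, and 0.015 with the block). Its sign was thus negative in the line that holds most of it (log2 fold change −0.10, 95% interval −0.41 to 0.21).

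Krt19 had 125 and 120 CPM in siCtl and 107 and 108 CPM in siNrf2 of PyMT-1099 LT. The log2 fold change in this line, the only 1 where the gene could be measured, was −0.18 (95% interval −0.38 to 0.01, limma adjusted p 0.53).

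By line, the 7 tested keratins gave 0 calls in PyMT-1099 LT by limma, where 0.520% of tested genes were called. There 3 of them had an unadjusted p under 0.05, as had 10.2% of all tested genes, edgeR called 0 (background 0.104%) and DESeq2 called 1, Krt14 (background 0.688%). The blocked fit called 5, Krt7 and Krt18 higher and Krt14, Krt16 and Krt17 lower, against 9.0% of tested genes. In Py2T LT limma gave 0 calls (background 0.152%), 2 keratins had an unadjusted p under 0.05 (5.39% of all tested genes), edgeR called 0 (background 0.0480%), DESeq2 called 1, Krt14 (background 0.264%), and the blocked fit called 2, Krt14 and Krt16, against 1.02%. In MT∆Ecad limma called 2, Krt14 and Krt16, both lower, where 17.3% of tested genes were called and 8.42% were lower, and the blocked fit added Krt18 against a background of 42.6%.

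**Figure D2:**
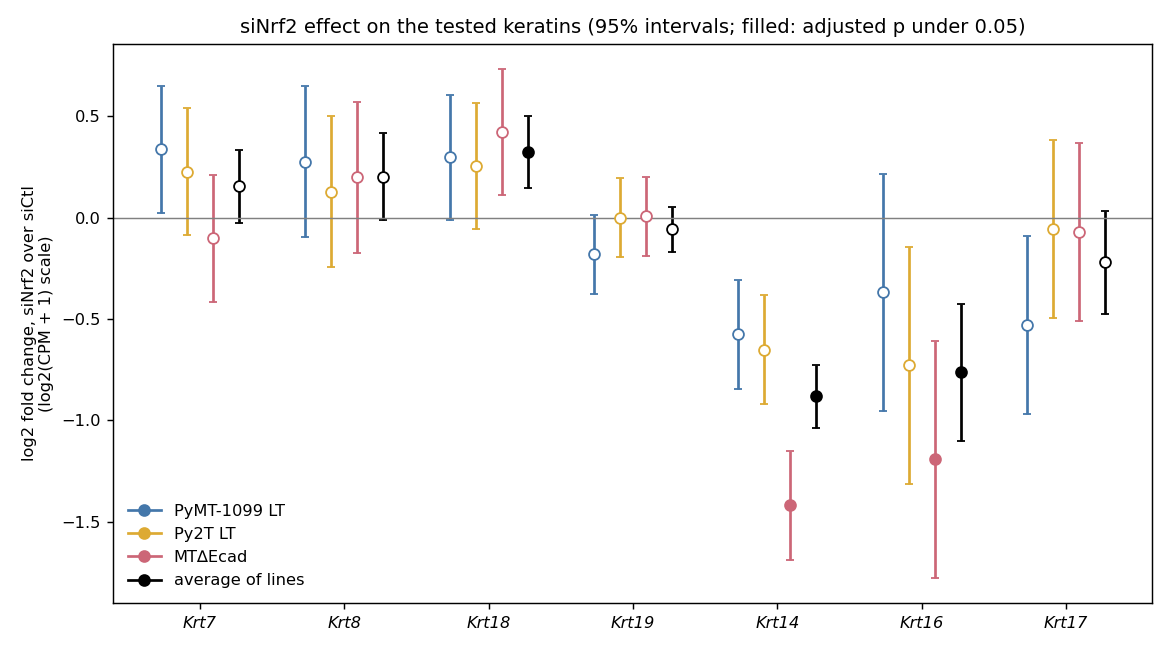
Log2 fold change of the 7 tested keratins, siNrf2 over siCtl on the log2(CPM + 1) scale, in each line (blue, yellow and red) and on the average of the lines (black), from the fit without the block. Bars are 95% intervals and filled points have a limma adjusted p under 0.05. Krt14 and Krt16 are below 0 in each line, with filled points in MT∆Ecad and on the average, and Krt18 is above 0 with a filled point on the average.

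Whether the response differed between lines was tested directly. By limma's F test 0 of the 7 keratins passed, where 2.18% of tested genes did. Krt14 came closest (adjusted p 0.053) and was the 1 keratin of 7 with an unadjusted p under 0.05, a share near the 15% of all tested genes. For this F test edgeR called 0 (background 0.160%) and DESeq2 called 1, Krt14 (adjusted p 0.013, background 2.26%). The blocked fit called 4, Krt7, Krt14, Krt16 and Krt17, against a background of 19.0%.

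Taken pair by pair, the fall of Krt14 in MT∆Ecad exceeded that in PyMT-1099 LT by 0.84 on the log2 scale (95% interval 0.46 to 1.22; limma adjusted p 0.043, and 0.0080 with the block; background 1.81%, and 14.5% with the block). It exceeded that in Py2T LT by 0.77 (95% interval 0.39 to 1.15; limma adjusted p 0.045, and 0.0069 with the block; background 3.50%, and 22.9% with the block). Both calls are marginal: the adjusted p was 0.19 and 0.11 by edgeR, 0.063 and 0.060 with TMM scaling, and 0.053 and 0.0503 with a filter at a CPM of 5, and when each library was omitted in turn 0 of 12 and 2 of 12 fits called them, with limma adjusted p up to 0.19 in each. DESeq2 called both differences (adjusted p 0.034 and 0.023), and its share over all tested genes is not given here. Between PyMT-1099 LT and Py2T LT the Krt14 effect differed by −0.08 (95% interval −0.46 to 0.30).

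The levels of different keratins can be set against each other per length. Per kb of exon in GENCODE M21, Krt18 led in siCtl of PyMT-1099 LT with 1682 ± 195 CPM per kb (mean ± SD, n = 2), followed by Krt8 with 813 ± 75.3, Krt19 with 77.7 ± 2.12, Krt7 with 11.96 ± 0.221 and Krt14 with 8.07 ± 0.539. Krt16 (1.70 ± 0.358) and Krt17 (1.31 ± 0.442) did not differ beyond their spread, and Krt5 was last with 0.297. In Py2T LT the order was Krt18 (912 ± 111), Krt8 (726 ± 89.6), Krt7 (77.0 ± 11.1), Krt14 (19.0 ± 0.899) and Krt16 (7.43 ± 2.61). In MT∆Ecad it was Krt8 (420 ± 37.6), Krt7 (321 ± 29.4), Krt18 (155 ± 9.84) and Krt14 (77.9 ± 7.997), with Krt16 at 1.66 ± 0.028 and the others below 0.06 CPM per kb.

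The balance of the types therefore differed between lines. Summed over 52 keratins, type II RNA per kb was 0.454 to 0.465 times type I RNA in siCtl of PyMT-1099 LT, 0.880 to 0.889 times in Py2T LT and 3.08 to 3.42 times in MT∆Ecad. These ratios depend on the length used: per kb of coding sequence, over 53 keratins, they were 0.550 to 0.562, 1.20 to 1.23 and 5.64 to 6.23, so that Py2T LT lay below 1 by exon and above 1 by coding length, while the order of the lines was the same. The ratio of Krt8 to its partner Krt18 was 0.476 to 0.492, 0.794 to 0.797 and 2.66 to 2.76 in the same order. Krt8 and Krt18 made up 92.7% to 93.4% of all keratin RNA per kb in siCtl of PyMT-1099 LT, 92.1% to 92.5% in Py2T LT and 56.7% to 58.0% in MT∆Ecad.

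In MT∆Ecad the makeup of type I RNA differed between siCtl and siNrf2 at a nearly even total. The type I sum was 234 and 237 CPM per kb in siCtl and 237 and 238 in siNrf2. Within it Krt14 had 35.7% and 30.4% in siCtl and 11.8% and 12.4% in siNrf2, and Krt18 had 63.2% and 68.2% against 87.8% and 87.0%. The ratio of Krt8 to Krt18 was 2.66 and 2.76 in siCtl and 2.33 and 2.31 in siNrf2, and the basal keratins' share of the 8 members was 9.20% and 7.22% against 2.77% and 2.95%. In PyMT-1099 LT the basal share was 0.434% to 0.441% in siCtl and 0.222% to 0.236% in siNrf2, and in Py2T LT 1.53% to 1.56% and 0.791% to 0.877%, so that siCtl and siNrf2 were apart in each line.

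The rank of Krt7 depends on the length used. The exons of its protein-coding GENCODE transcripts, merged, cover 4094 nt, and its longest coding sequence has 1371 nt, while Krt8 has 1958 and 1470 nt. Per kb of exon Krt7 was 41.6% to 42.1% of type II RNA in siCtl of MT∆Ecad, and per kb of coding sequence, a length chosen after the values were seen, 59.2% to 60.3%, which puts it at 1.71 times Krt8. The Krt14 share of type I RNA in MT∆Ecad was 31.1% to 36.4% in siCtl and 12.1% to 12.8% in siNrf2 per kb of coding sequence, close to the values per kb of exon.

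**Figure D3:**
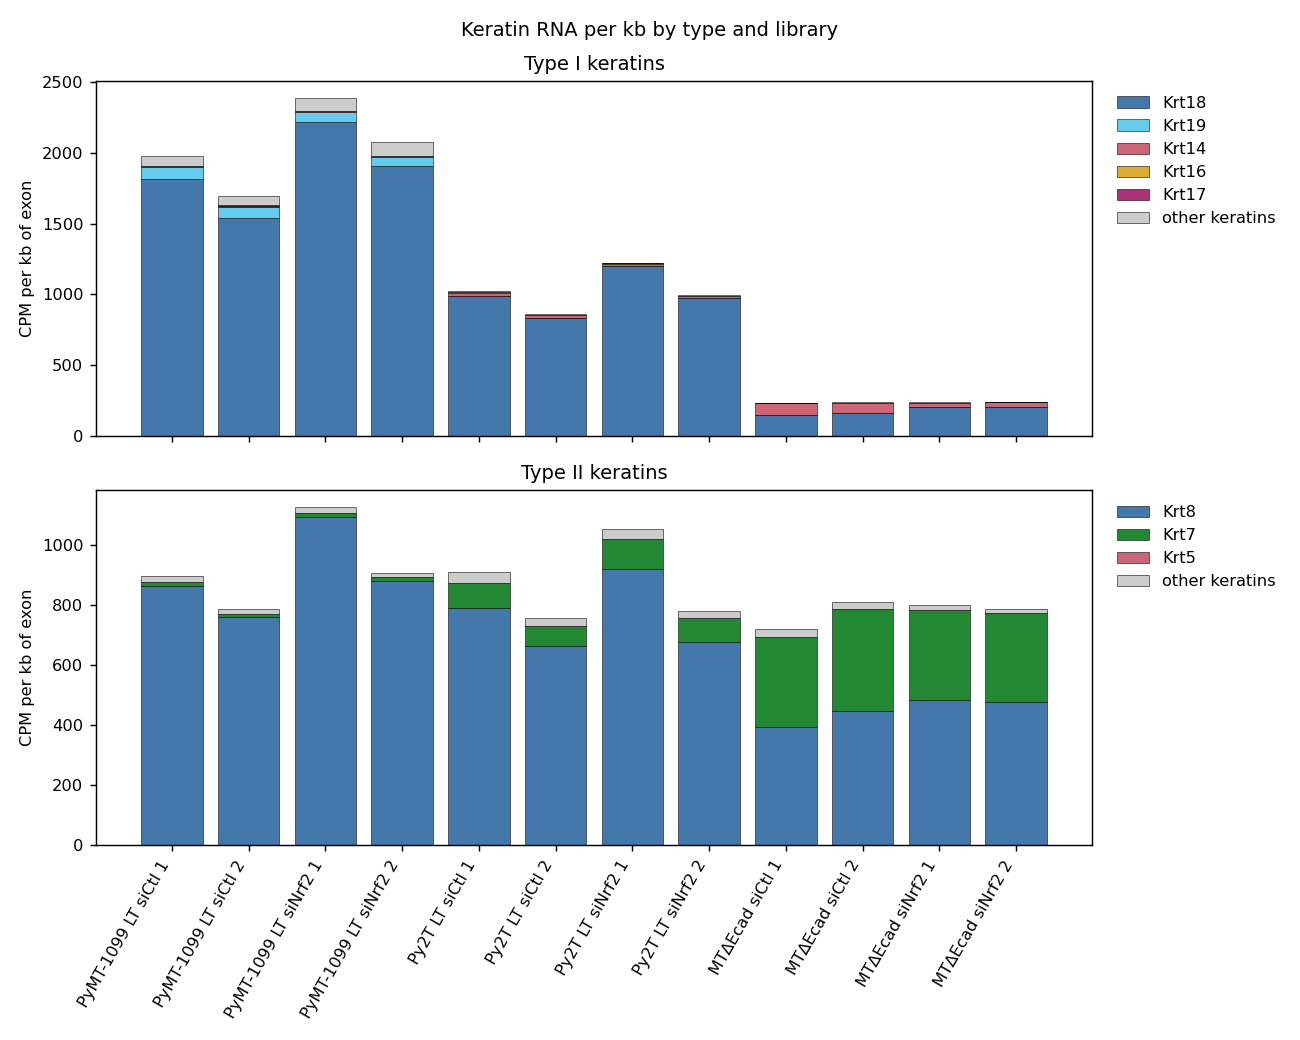
Keratin RNA in CPM per kb of exon in each library, stacked by gene, type I keratins above and type II keratins below, with grey for all other keratins of the type. In MT∆Ecad the type I bars are of nearly equal height, 234 to 238 CPM per kb, and the Krt14 part is 30.4% to 35.7% of them in siCtl and 11.8% to 12.4% in siNrf2.

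The remaining keratins were few. Of 46 other keratin genes listed, 45 were in the table and 7 passed the filter: Krt20, Krt80, Krt10, Krt79, Krt76, Krt27 and Krt13. On the siNrf2 average limma called 1 of the 7, lower, with a median log2 fold change of −0.15 over them, while edgeR and DESeq2 called 0. At an unadjusted p under 0.05 there were 1 higher and 3 lower, where 28.7% of all tested genes had such a p. With the block the same counts passed, where 40.0% of all tested genes did. The limma background for this average was 12.3%, and those of edgeR and DESeq2 are not given here. Krt20, a type I keratin of gut and urothelium, resembled Krt19 in being a keratin of PyMT-1099 LT, with 124 and 120 CPM in siCtl and 173 and 181 CPM in siNrf2. The siNrf2 libraries were above both siCtl libraries (log2 fold change 0.53, SE 0.086, limma adjusted p 0.037), while Krt19 in the same line had −0.18 and did not pass. How many of all tested genes were so apart in this line is not given here. Of the 7 other keratins in this line DESeq2 called 1, higher (background 0.688%), and edgeR called 0 (background 0.104%). Krt20 had 5 to 10 reads per library in Py2T LT and 0 in MT∆Ecad.

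Krt76, a type II keratin of oral epithelium, was the 1 other keratin that fell on the average (log2 fold change −0.32, SE 0.081, limma adjusted p 0.037). It went from 1.72 and 2.31 to 0.444 and 0.926 CPM in PyMT-1099 LT (log2 fold change −0.85, limma adjusted p 0.040) and had 1 to 6 reads per library in Py2T LT and 0 in MT∆Ecad. Both p-values rest on a spread pooled with these libraries at or near 0. Krt80, a type II keratin found in many epithelia, was the most even of them. Its siCtl mean was 71.7 ± 11.4 CPM in PyMT-1099 LT and 135 ± 28.3 CPM in Py2T LT, and MT∆Ecad went from 114 ± 14.8 CPM in siCtl to 70.0 ± 14.5 CPM in siNrf2 (mean ± SD, n = 2). The log2 fold change in MT∆Ecad was −0.70 (limma adjusted p 0.079).

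**Figure D4:**
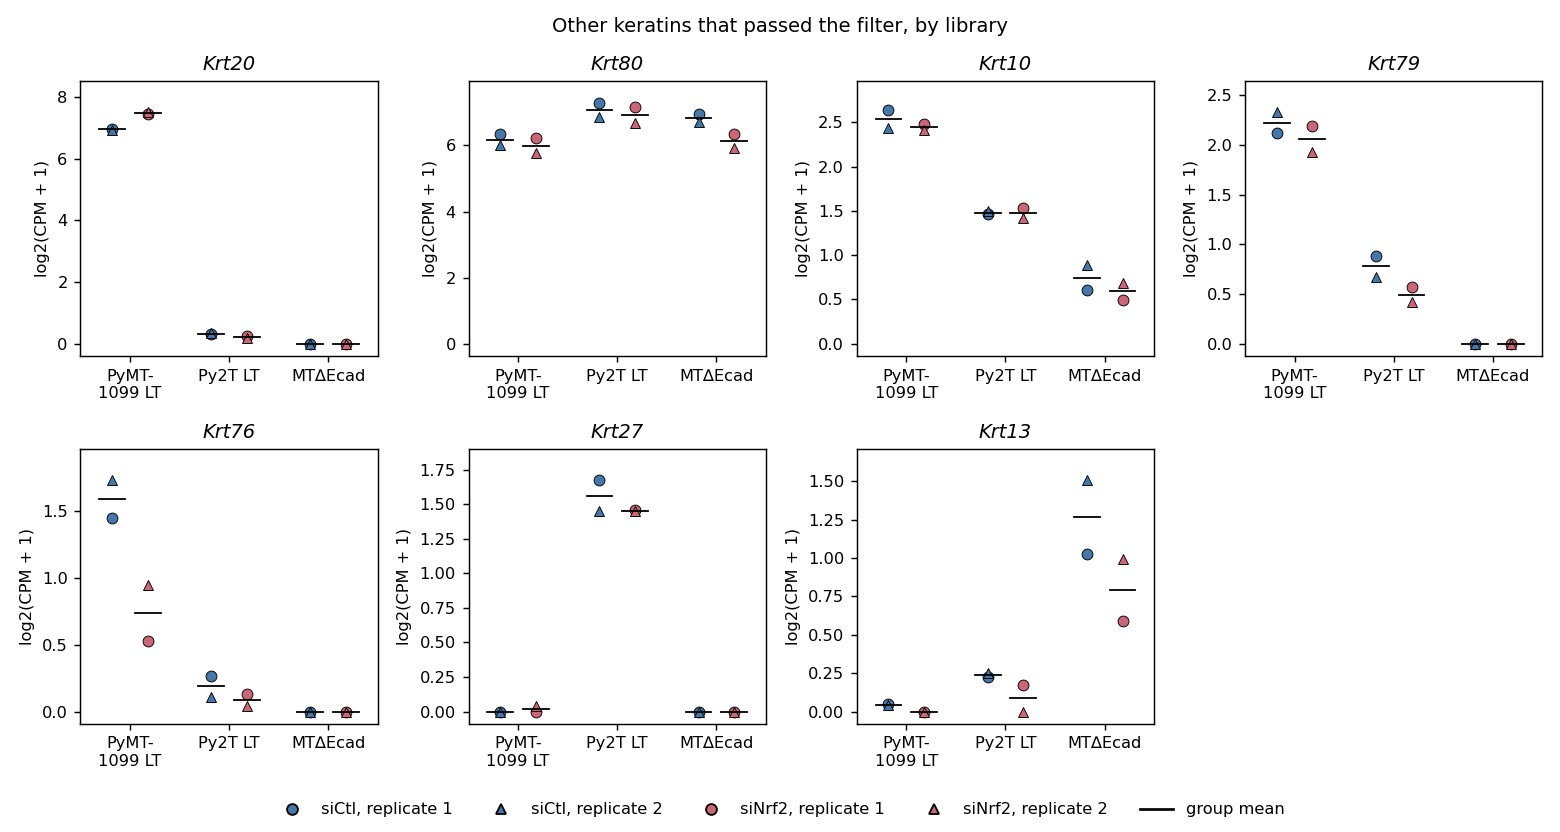
Levels as log2(CPM + 1) of the 7 other keratins that passed the filter, in the 12 libraries, each panel with its own axis and the symbols as for the members. Krt20, Krt10, Krt79 and Krt76 are highest in PyMT-1099 LT, Krt27 in Py2T LT and Krt13 in siCtl of MT∆Ecad, and Krt80 is present in each line.

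Genes that anchor or accompany keratin filaments were mostly not called. Their limma counts on the siNrf2 average stand beside 12.3% of all tested genes, 5.99% higher and 6.26% lower. On this average 1 of 10 tested other intermediate filament and lamin genes rose and 1 fell. The vimentin gene Vim, the main filament of mesenchymal cells, did not pass (log2 fold change 0.08, limma adjusted p 0.55), the nuclear lamin Lmnb1 fell (−0.33, limma adjusted p 0.0029) and the desmin partner syncoilin, Sync, rose (0.29, limma adjusted p 0.011), from 22.2 ± 1.26 to 43.3 ± 0.376 CPM in MT∆Ecad. Of 9 tested desmosome genes, which tie keratin to cell contacts, limma called 2, both lower: Perp (−0.61, limma adjusted p 0.0029) and the plakophilin Pkp4 (−0.20, limma adjusted p 0.014). Perp had its largest change in PyMT-1099 LT, from 6.65 ± 1.04 to 2.77 ± 0.293 CPM (log2 fold change −1.02, limma adjusted p 0.013).

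Of 12 hemidesmosome and plakin genes, which tie keratin to the basement membrane, 3 rose and 2 fell on the average by limma. By edgeR 1 rose and 1 fell. The shares of all tested genes that edgeR and DESeq2 called on the average are not given here. The integrin subunit Itgb4 rose (0.25, limma adjusted p 0.030), as did the laminin-332 chains Lama3 (0.35, limma adjusted p 0.043) and Lamb3 (0.24, limma adjusted p 0.044). In MT∆Ecad, however, Itgb4 and Lamb3 each had −0.096, at 1.65 and 0.185 CPM in siCtl. Lama3 had 61.4 CPM in siCtl of Py2T LT, but 1.06 in PyMT-1099 LT and 0.118 in MT∆Ecad. Neither laminin chain passed in a single line by limma. The plakins Ppl (−0.49, limma adjusted p 0.011) and Eppk1 (−0.34, limma adjusted p 0.029) fell. Plec, the plakin that cross-links keratin to hemidesmosomes, had 0.18 (limma adjusted p 0.13). On the average limma, edgeR and DESeq2 each called 0 of 6 tested keratin partners and modifiers. Of these 2 had an unadjusted p under 0.05 (28.7% of all tested genes), while the blocked fit called 2 higher and 1 lower (background 40.0%). Among them Fam83h had a log2 fold change of 0.28 (limma adjusted p 0.12) and Pnn −0.33 (limma adjusted p 0.45).

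Of 17 tested regulators of keratin genes, limma called 1 on the average, higher (background 12.3%). There edgeR called 0 and DESeq2 called 0 higher and 1 lower, and their shares over all tested genes are not given here. The blocked fit called 3 higher and 2 lower, where 40.0% of all tested genes were called. Trp63, whose protein p63 activates Krt5 and Krt14 in basal epithelium, rose (0.59, limma adjusted p 0.0056). The rise was in MT∆Ecad, from 5.40 ± 0.351 to 21.2 ± 5.51 CPM (log2 fold change 1.77, limma adjusted p 0.00038, and 0.0093 for the difference between lines), while the gene was below 0.1 CPM in the means of PyMT-1099 LT and Py2T LT. The SE of Trp63 is pooled with the libraries of those lines, so its limma p-values do not measure the spread within MT∆Ecad. MT∆Ecad is the line in which Krt14 fell from 132 ± 13.6 to 48.8 ± 1.92 CPM. Snai1 (0.19, limma adjusted p 0.20), Sox9 (−0.07, limma adjusted p 0.59) and Gata3 (0.04, limma adjusted p 0.79) did not pass on the average.

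Markers of cell types were read beside these values. The summed level of 12 basal or myoepithelial markers without keratins was 2118 and 2314 CPM in siCtl and between 2792 and 3177 CPM in siNrf2 of MT∆Ecad, with 3 of 9 tested members higher and 1 lower there, where 8.89% of all tested genes were higher and 8.42% lower. The 8 mesenchymal markers went from 14240 and 14870 CPM to between 18890 and 19830 CPM in the same line, with 1 of 8 higher by limma, and 7 fibroblast markers from between 739 and 879 to between 1119 and 1279 CPM, with 3 of 3 tested higher and Lum at 0 reads in both. Luminal markers without keratins summed to between 155 and 169 CPM in siCtl and between 171 and 189 CPM in siNrf2 of MT∆Ecad. Immune markers summed to at most 48.6 CPM in a library, with Cd3e at 0 in every group, and endothelial markers to 88.0 to 124 CPM in PyMT-1099 LT and at most 6.30 CPM elsewhere. The part of these changes in the keratin values was not tested.

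The genes whose profile over the 12 libraries was most like that of a member were named by Pearson's r of log2(CPM + 1). The lines set most of these profiles, so r describes shared levels by line, and 155 genes had r above 0.99 with Krt19. For Krt14 the nearest were Gstp1 (r = 0.983), Osbpl5 (0.980) and Slc39a6 (0.980), and Gstp1, a glutathione transferase, went in group means from 137 to 61.3 CPM in MT∆Ecad, from 55.5 to 43.5 CPM in Py2T LT and from 29.25 to 24.9 CPM in PyMT-1099 LT. For Krt16 they were Pofut2 (0.979), Tsen54 (0.970) and Dpy30 (0.969). The nearest to Krt7 was Echdc2 (0.995), to Krt8 Dpm2 (0.984), to Krt18 Plin2 (0.996) and to Krt19 Vnn1 (0.9998).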

How the data were processed

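RNA of 12 libraries was measured, 2 for each of 6 groups. Per the labels' protocols, total RNA (200 ng) was depleted of ribosomal RNA, made into stranded TruSeq libraries and read as single reads of 81 nt. The submitters' processing notes name STAR and mm10, and the counter, annotation and strand setting are not given in the sources used here. The authors deposited CPM values per Entrez gene, which sum to 1000000 in each library, and whole reads were recovered from the steps of 1 read in 100% of values within 0.01. Symbols came from RefSeq GRCm38.p6 for 24374 of 24454 IDs.

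The 12502 genes that reached a CPM of 1 in 2 or more libraries entered limma 3.58.1 in R 4.3.3 on log2(CPM + 1), with 6 group means, a mean-variance trend and Benjamini-Hochberg adjustment over all tested genes at 0.05. Fold changes on this scale understate those of low genes. The spread of a gene is estimated over all 12 libraries. Libraries near 0 reads can therefore narrow the SE of a gene measured in 1 line, as for Krt5, Krt19, Krt20, Krt76 and Trp63. Of the fits, only limma without the block was run on simulated reads, and only for the average of the lines. The simulated libraries had no deviation shared by replicate number, unlike the real ones. Same-numbered siCtl and siNrf2 libraries deviated together within each line (r = 0.778, 0.846 and 0.625), so a fit with the replicate number within a line as a block is given where it changes a call. edgeR 4.0.16 and DESeq2 1.42.0 on the recovered reads, a pseudocount of 0.1, other filters, TMM scaling and leaving out each library were alternatives.

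The keratins and the gene lists were chosen with earlier results of these data known. Named genes are the 8 members, every other tested keratin, Nfe2l2, and per list up to 4 genes with the largest called average change and up to 4 with the highest CPM per kb. For members with a mean CPM of at least 1, the 3 genes with the highest Pearson r and a mean CPM of at least 2 are named, of which the text gives 1 to 3. Levels per kb use GENCODE M21 exon lengths. The siRNA sequences were not analysed here.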

Additional observations from a re-analysis of the deposited data

Results flagged for a closer look

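The siNrf2 effect on Krt14 differed between lines by a direct test of the difference, which is why it is listed here. On the log2(CPM + 1) scale the effect in MT∆Ecad minus that in PyMT-1099 LT was −0.843 (limma adjusted p 0.043), and that in MT∆Ecad minus that in Py2T LT was −0.766 (limma adjusted p 0.045). Neither passed with a pseudocount of 0.1, TMM scaling, a filter at a CPM of 5 or edgeR, with adjusted p between 0.0503 and 0.19. DESeq2 called both (adjusted p 0.034 and 0.023). Without the filter on low values only the former passed (limma adjusted p 0.048, against 0.053 for the latter). The lines had Krt14 at 36.9%, 65.0% and 62.5% of the siCtl mean after siNrf2, in the order MT∆Ecad, PyMT-1099 LT and Py2T LT. In MT∆Ecad the fall in both siNrf2 libraries stood beside a rise of Trp63 from 5.40 ± 0.351 to 21.2 ± 5.51 CPM (mean ± SD, n = 2), and the relation of these changes was not tested.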

How the results depend on the processing

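With 2 libraries a group, counts of called keratins depended on the fit. In PyMT-1099 LT limma called 0 of 7 keratins and 1 of 8 without the filter on low values, Krt5, while DESeq2 called 1, Krt14. In Py2T LT limma called 0 and DESeq2 called 1, Krt14. The blocked fit, which pairs libraries by replicate number within a line, called 5 in PyMT-1099 LT, 2 in Py2T LT, 6 on the average (3 without the block) and 4 for the difference between lines. For that difference limma called 0 and DESeq2 called 1, Krt14. Without the filter limma called 1, Krt5 (F test adjusted p 0.023), and not Krt14 (0.058). The Krt5 call rests on a spread pooled with libraries near 0 reads, and its share over all genes is not given here. In MT∆Ecad leaving out a library gave 1 to 3 calls, 1 without any 1 of the 4 MT∆Ecad libraries and 3 without Py2T LT siNrf2 replicate 1 or 2, where Krt18 passed (limma adjusted p 0.041 and 0.040). The siCtl comparisons of lines kept a count of 6 with a block shared over lines and with the MT∆Ecad numbers exchanged, a crossed pairing chosen after seeing the data.

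Directions turned only for small effects. In Py2T LT the log2 fold change of Krt8 ranged from −0.094 without siNrf2 replicate 1 to 0.35 without siNrf2 replicate 2. That of Krt17 ranged from −0.21 without siCtl replicate 2 to 0.099 without siCtl replicate 1, with 0.076 without siNrf2 replicate 2. In MT∆Ecad that of Krt19, on 2 to 4 reads, was −0.0251 without siCtl replicate 1 and −0.040 without siNrf2 replicate 1, and 0.050 without siNrf2 replicate 2. For Krt16 between siCtl of MT∆Ecad and PyMT-1099 LT it was 0.00896 with TMM scaling, 0.0078 by edgeR, 0.017 by DESeq2 and 0.14 and −0.17 without PyMT-1099 LT siCtl replicate 1 and 2. For these, the cause was not tested. The difference in Krt14 effect of MT∆Ecad against PyMT-1099 LT and against Py2T LT did not pass with a pseudocount of 0.1 (limma adjusted p 0.105 and 0.074), TMM scaling (0.063 and 0.060), the CPM 5 filter (0.053 and 0.0503) or edgeR (0.19 and 0.11), and the latter did not pass without the filter (0.053). Both differences passed by DESeq2 (adjusted p 0.034 and 0.023), and the former passed without the filter (limma adjusted p 0.048). Counting depth limits Krt5, Krt17 and Krt19 in MT∆Ecad, with at most 4 reads a library.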
